A study of Mus musculus with 2 samples.

Results

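Transcripts of splicing factors and heterogeneous nuclear ribonucleoproteins (hnRNPs) were examined in native eosinophils, granulocytes gated here on CCR3, a chemokine receptor, and on SiglecF. Marrow of naive C57BL6J mice was pooled and sorted in 2 independent rounds, called sort 1 and sort 2, and stranded poly(A) RNA libraries were sequenced. Both libraries belong to 1 group, so no condition was compared, and each ratio between the sorts compares 2 libraries. The labels state neither the number nor the age of the mice. Members were all entries whose symbol began with Srsf, Sf3a, Sf3b, U2af or Prpf followed by a digit, or with Hnrnp or Snrp. This gave 64 of the 23343 genes, among them 11 SR proteins, 16 hnRNP proteins, 8 subunits of SF3A and SF3B, 3 U2AF genes, 13 Snrp entries and 13 Prpf genes.

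Introns are removed by the spliceosome, which is built on each transcript from small nuclear ribonucleoproteins (snRNPs) and many further proteins. The U1 snRNP pairs with the 5′ splice site, U2AF reads the polypyrimidine tract and the AG at the 3′ splice site, and the U2 snRNP with SF3A and SF3B settles on the branch point before the tri-snRNP joins and catalysis begins. SR proteins bind exons and mostly favour their inclusion, while hnRNPs coat the nascent transcript and often oppose it, so the balance of these families helps to set which exons a cell keeps.

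As a guide to where the most abundant members start, the promoters of the leading genes of 3 families are shown beside that of Snrpn, an imprinted gene without a read in either sort. Each runs 5′ to 3′ on the strand of the gene, from 250 bases before to 50 bases after the RefSeq start in GRCm38.p6, and capitals mark matches on either strand to the 7 motifs named after them; overlapping matches run together. Hnrnpa2b1 lies at chr6:51469845-51470144 on the minus strand, Srsf5 at chr12:80945249-80945548 on the plus strand, Sf3b1 at chr1:55027429-55027728 on the minus strand and Snrpn at chr7:60005150-60005449 on the minus strand.
Hnrnpa2b1: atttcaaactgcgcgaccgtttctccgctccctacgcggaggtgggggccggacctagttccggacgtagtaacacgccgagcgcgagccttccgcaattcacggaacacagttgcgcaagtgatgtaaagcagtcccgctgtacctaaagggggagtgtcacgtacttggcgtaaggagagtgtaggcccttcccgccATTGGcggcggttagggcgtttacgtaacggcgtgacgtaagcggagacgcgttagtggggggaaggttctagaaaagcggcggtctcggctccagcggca
Srsf5: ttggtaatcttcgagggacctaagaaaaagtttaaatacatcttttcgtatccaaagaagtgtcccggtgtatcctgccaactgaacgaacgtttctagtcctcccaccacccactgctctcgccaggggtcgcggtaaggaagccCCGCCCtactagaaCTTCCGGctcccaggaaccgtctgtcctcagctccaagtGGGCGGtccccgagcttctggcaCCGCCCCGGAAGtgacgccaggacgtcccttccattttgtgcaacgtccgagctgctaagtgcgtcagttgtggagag
Sf3b1: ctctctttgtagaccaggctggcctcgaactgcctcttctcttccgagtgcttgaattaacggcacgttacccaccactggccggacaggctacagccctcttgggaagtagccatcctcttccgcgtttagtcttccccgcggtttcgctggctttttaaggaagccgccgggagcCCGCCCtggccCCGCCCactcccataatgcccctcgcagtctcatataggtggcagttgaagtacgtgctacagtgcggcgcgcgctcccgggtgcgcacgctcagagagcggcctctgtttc
Snrpn: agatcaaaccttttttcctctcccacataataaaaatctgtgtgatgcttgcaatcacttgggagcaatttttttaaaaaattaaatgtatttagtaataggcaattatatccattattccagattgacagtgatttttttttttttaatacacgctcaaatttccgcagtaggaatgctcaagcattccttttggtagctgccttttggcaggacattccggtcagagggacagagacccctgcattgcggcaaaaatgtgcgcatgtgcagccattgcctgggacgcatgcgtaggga

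The 3 promoters of abundant members held 34, 20 and 24 CpG dinucleotides, against 7 in the Snrpn window. This contrast did not hold for every member with few or no reads. The window of Srsf12, also without a read, held 26, and those of Prpf40b held 35 and 5. Hnrnpa2b1 had 1 CCAAT box, Srsf5 had 3 GC boxes and 2 ETS cores, Sf3b1 had 2 GC boxes, and the Snrpn window held none of the motifs searched. By symbol, 55 of the 64 entries matched 76 promoter windows in the RefSeq table. Their median CpG count was 25, against 22 in 6773 windows of other detected genes and 7 in all 32851 windows of 300 bases. The ETS core CCGGAAG was found in 30.3% of member windows, 19.9% of windows of other detected genes and 8.86% of all windows. The GC box GGGCGG was in 61.8%, 64.1% and 35.7%, and the CCAAT box in 48.7%, 37% and 37.4%, in the same order. A TATA box, TATAAA, was in 9.21% of member windows and 6.79% of those of other detected genes, beside 13.6% of all. The cyclic AMP element TGACGTCA was in 2.63%, 3.29% and 1.79%, the NRF1 core in 1.32%, 2.23% and 0.971%, and the YY1 core AAGATGGCG in 2.63%, 3.56% and 1.4%. The CpG count and the GC box share of members lay near those of other detected genes, and no test was made of these shares. Some genes have several windows, which can overlap, as those of Srsf4 do, so the same bases can count more than once. The member windows also include those of members that were not detected.

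Deposited counts summed to 10087743 for sort 1 and 9264150 for sort 2. Members took 70610 of them in sort 1, or 0.70% (95% Wilson interval 0.695 to 0.705), and 74127 in sort 2, or 0.80% (0.794 to 0.806). Without the ribosomal RNA precursor Rn45s, which took 914623 reads in sort 1 and 89209 in sort 2, these shares were 0.770% and 0.808%. All 11 eosinophil genes used to check the label were detected, with summed levels of 3489 and 4327 RPKM (reads per kilobase of transcript, scaled to library size), and none was at 0. All 14 neutrophil genes were detected too, with sums of 4439 and 4208 RPKM, as large as those of the eosinophil genes. Of 15 cycling cell genes 14 were detected, with sums of 74.0 and 102 RPKM. Detected at 1 RPKM in both sorts were 6 of 10 monocyte and macrophage, 5 of 7 basophil and mast cell, 2 of 6 B and plasma cell, 1 of 7 T and NK cell and 0 of 9 erythroid genes, with sums of 309 and 247, 25.6 and 30.6, 7.36 and 4.87, 10.7 and 11.5, and 4.0 and 6.58 RPKM. Hba-a1 and Hba-a2 had the same counts, as did Hbb-b1 and Hbb-bs, so the erythroid sums may hold the same reads more than once. Mcpt4 had no read in either sort and C1qa and Igj had none in sort 2. The part of other cells in the levels that follow was not tested, and in bulk samples fewer cells of a type and less RNA per cell cannot be told apart.

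Most of the splicing machinery was transcribed at moderate levels in both sorts. The minimum for a detected gene was 1 RPKM in sort 1 and also in sort 2. It was reached by 55 of 64 members, or 85.9%, where 30.2% of all genes reached it. At least 10 RPKM in both was reached by 14 members, or 21.9%, where 5.55% of all genes did. The median member had 4.33 RPKM in sort 1 and 4.24 in sort 2, the median of all genes was 0.108 and 0.0896, and the median of all 7048 detected genes was 4.07 and 3.97. The median of the 55 detected members was 5.30 RPKM and that of all detected genes 4.03, as means of the sorts. Of all members 12 were among the 1000 genes with the highest mean RPKM.

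**Figure D1:**
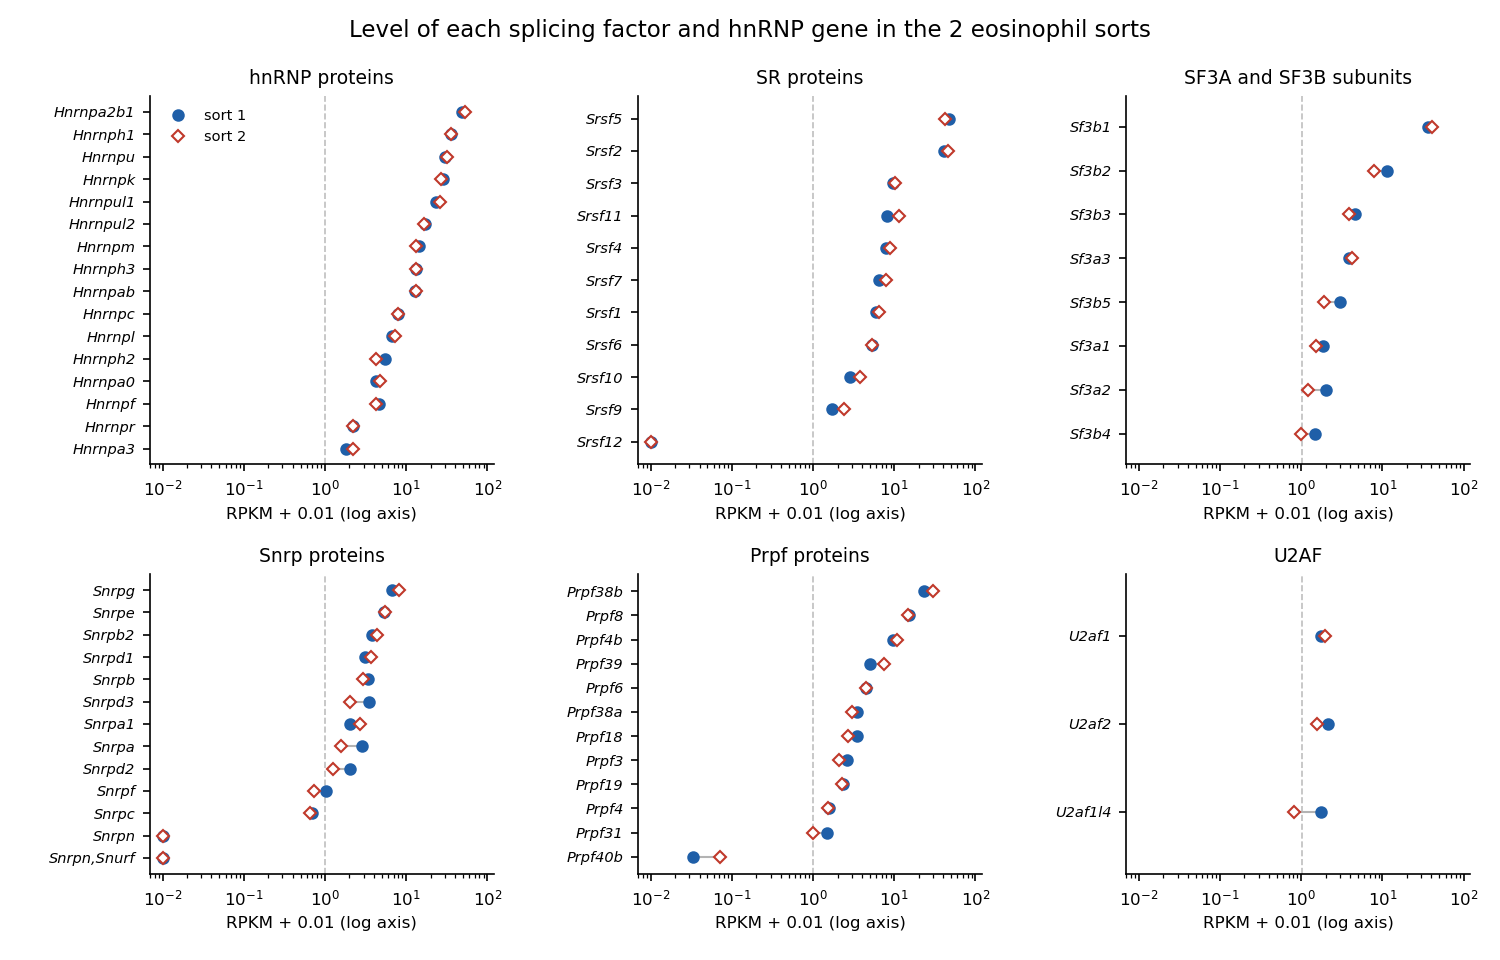
Deposited RPKM plus 0.01, on a log axis, for 63 of the 64 members in sort 1 (filled circles) and sort 2 (open diamonds), by family and ordered by mean level, with the dashed line at 1 RPKM. The hnRNP panel lies wholly to the right of the line and reaches 52.6 RPKM, while Srsf12 and both Snrpn entries sit at 0 RPKM and most Snrp genes lie between 1 and 10 RPKM.

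The hnRNP proteins were the most abundant family, with all 16 detected, 9 at 10 RPKM or more in both sorts, and a median of 13.2 RPKM in sort 1 and 13.1 in sort 2. Hnrnpa2b1, which binds nascent and exported RNA, led all members at 49.0 RPKM in sort 1 and 52.6 in sort 2 and ranked 183 among all genes. Hnrnph1, a binder of G-runs near splice sites, had 35.7 and 36.2 RPKM, and Hnrnpu, the scaffold attachment factor that binds chromatin and RNA, had 29.7 and 31.7. The values of these 3 genes did not overlap between genes. Hnrnpk, whose KH domains bind C-rich RNA, had 28.7 and 26.8 RPKM. Between 10 and 30 RPKM were also Hnrnpul1, Hnrnpul2, Hnrnpm, Hnrnph3 and Hnrnpab, whose mean levels ran from 24.7 for Hnrnpul1 down to that of Hnrnpab, which had 12.98 in sort 1 and 13.03 in sort 2. Below them came Hnrnpc, which binds uridine tracts and keeps cryptic exons out, at 7.89 and 7.82 RPKM, and Hnrnpl, known in lymphocytes for repressing exons of the phosphatase CD45, at 6.70 and 7.28. Paralogues within the family differed in level to unlike degrees. Hnrnpul1 exceeded Hnrnpul2 by 1.39-fold in sort 1 and 1.55-fold in sort 2. Hnrnph1 exceeded its X-linked relative Hnrnph2 by 6.44-fold in sort 1 and 8.45-fold in sort 2, and Hnrnph3 by 2.68-fold and 2.74-fold. On the opposite strand Hnrnph3 overlaps Rufy2 over 4079 bases and Hnrnpab overlaps Agxt2l2 over 3170 bases. The strand setting of the counting is not known, and the effect of these overlaps was not tested. By deposited RPKM Hnrnpa3 was the lowest member of the family at 1.804 and 2.195 RPKM, but its locus overlaps Gm6793 on the same strand over 6467 bases, and that entry took 1315 and 1588 reads against 376 and 459 for Hnrnpa3, so the level of Hnrnpa3 is uncertain. Hnrnpr, Hnrnpf, Hnrnpa0 and Hnrnph2 had means of 2.21 to 4.91 RPKM.

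Among SR proteins, 10 of 11 genes were detected and 2 stood well above the rest. Srsf5 had 47.3 RPKM in sort 1 and 42.8 in sort 2. Srsf2, which binds exonic enhancers and is recurrently mutated in human myeloid neoplasms, had 40.9 and 45.8 RPKM. These 2 overlapped in level, since each was the higher of the pair in 1 sort. Srsf3, the smallest SR protein and one that also serves mRNA export, had 9.65 and 10.2 RPKM, and Srsf11 had 8.23 and 11.4. The others, Srsf4, Srsf7, Srsf1, the founding member of the family, and Srsf6, lay at means of 8.39, 7.22, 6.16 and 5.30 RPKM, followed by Srsf10, which represses splicing when dephosphorylated, at 3.28 and Srsf9 at 2.06. Srsf12 had no read in either sort, which allows up to 0.297 CPM in sort 1 and 0.324 in sort 2. Srsf5 was 27.8-fold and 17.7-fold above Srsf9, the lowest SR gene with reads.

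Subunits of the U2 snRNP that meet in 1 protein complex had unequal transcript levels. Sf3b1, the HEAT-repeat protein that clasps the branch point and a target of mutation in human myelodysplastic syndromes, had 36.05 RPKM in sort 1 and 40.59 in sort 2. Sf3b2, its neighbour in SF3B, had 11.4 and 7.94 RPKM, and the scaffold Sf3b3 had 4.56 and 3.85. Sf3b5, the smallest of these SF3B subunits, had 2.96 and 1.88 RPKM, and Sf3b4, which touches RNA upstream of the branch point, had 1.47 and 0.987, just under the minimum in sort 2. Each sort thus ranked the 5 SF3B genes in the same order, with Sf3b1 24.5-fold above Sf3b4 in sort 1 and 41.1-fold in sort 2. Over GENCODE lengths Sf3b5 was the lowest, at 0.567 and 0.360, and Sf3b4 had 1.31 and 0.876. However, the deposited Sf3b5 entry runs only from 13008450 to 13009183 on chromosome 10, against a GENCODE length of 3841 bases. Its level over that length is therefore understated. The SF3A genes were closer together. Sf3a3 had 3.83 and 4.18 RPKM, Sf3a1 1.84 and 1.51, and Sf3a2 2.04 and 1.19, so that Sf3a1 and Sf3a2 changed places between the sorts. The U2AF genes were low and near each other: U2af1, the reader of the AG, had 1.74 and 1.98 RPKM, and U2af2, which binds the polypyrimidine tract, had 2.14 and 1.56. Their order differed between the sorts. U2af1l4, a homologue of U2af1, had 1.74 RPKM in sort 1 and 0.798 in sort 2.

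Snrp genes, which encode the Sm proteins and the specific proteins of the U1 and U2 snRNPs, had the lowest levels among families with more than 3 genes. Of 13 entries 9 were detected, the medians being 2.87 and 2.04 RPKM and none at 10. The 7 genes of the Sm ring, which closes around each spliceosomal snRNA, differed by up to 8.41-fold in mean deposited RPKM. Snrpg had 6.66 RPKM in sort 1 and 8.08 in sort 2, and Snrpe 5.37 and 5.46. Snrpd1 had 3.10 and 3.68, Snrpb 3.41 and 2.92, and Snrpd3 3.43 and 2.04. By deposited RPKM Snrpg and Snrpe were thus the highest of the ring in both sorts. Over GENCODE lengths Snrpe was the highest, at 5.26 and 5.35, and Snrpg, at 2.49 and 3.02, lay below Snrpd1, at 3.03 and 3.60, in both sorts. The length implied by the count and RPKM of Snrpg was 0.37 times its GENCODE length, so its place in the ring is uncertain. For Snrpd3 it was 0.20 times. Over GENCODE lengths Snrpd3 was the lowest of the ring, at 0.685 and 0.407, so its place is uncertain too. Snrpd2 had 2.02 and 1.26 RPKM and Snrpf 1.03 and 0.723, from only 33 and 23 reads. Of the U2 proteins, Snrpb2 had 3.81 and 4.36 RPKM and its partner Snrpa1 2.03 and 2.72. Over GENCODE lengths Snrpb2 had 2.28 and 2.61 and Snrpa1 2.04 and 2.73, so their order then differed between the sorts. Of the U1 proteins, Snrpa, which binds a stem loop of U1 RNA, had 2.87 and 1.55, and Snrpc, which steadies pairing with the 5′ splice site, had 0.682 and 0.648 from 21 and 20 reads. Snrpn, known for its expression in brain from the paternal allele, had no read under its own symbol or in its joint entry with Snurf.

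The Prpf genes encode unrelated proteins named after yeast mutants in RNA processing, and 11 of 13 were detected, the medians being 3.49 and 2.98 RPKM. Prpf38b led with 23.2 RPKM in sort 1 and 29.9 in sort 2, which was 6.63-fold and 10.02-fold above Prpf38a, a protein of the precatalytic spliceosome, at 3.49 and 2.98. Prpf8, the protein at the heart of the catalytic centre, had 15.1 and 14.7 RPKM. The kinase Prpf4b had 9.57 and 10.7. Other tri-snRNP proteins were lower than Prpf8, with Prpf6 at 4.43 and 4.44, Prpf3 at 2.58 and 2.09, Prpf4 at 1.54 and 1.53 and Prpf31 at 1.48 and 0.979 RPKM. Prpf8 was 10.3-fold above Prpf31 in sort 1 and 15.0-fold in sort 2. Prpf39, a relative of a yeast U1 snRNP protein, had 5.08 and 7.37 RPKM, Prpf18, which acts in the second catalytic step, 3.44 and 2.67, and Prpf19, the ubiquitin ligase that names the Prp19 complex, 2.36 and 2.26. Prpf40b had 3 reads in sort 1 and 8 in sort 2, or 0.0234 and 0.0624 RPKM.

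In all, 9 members missed 1 RPKM in at least 1 sort. Besides Srsf12, Snrpn and its joint entry with no read, Prpf40b with a few and Snrpc in both sorts, these were Sf3b4, Prpf31, Snrpf and U2af1l4, which missed it in sort 2 alone. Nearest to the minimum from below were Prpf31 at 0.979 and Sf3b4 at 0.987 in sort 2, and just inside it were Sf3a2 at 1.19 and Snrpd2 at 1.26 in sort 2.

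Some deposited levels depend on the transcript length used. Of 66 member rows with reads and a GENCODE length, the length implied by count and RPKM was over 1.3 times the annotated length in 6 and under 0.8 times in 13. It exceeded the annotated length by 1.95-fold for Hnrnpa3, 1.89-fold for Hnrnpa2b1, 1.86-fold for Srsf7, 1.51-fold for the main row of Prpf19 and 1.34-fold for Srsf1, and their RPKM would be higher by that much over annotated lengths. In the other direction it was 0.19 times the annotated length for Sf3b5, 0.20 for Snrpd3, 0.34 for Snrpd2, 0.37 for Snrpg, 0.48 for Hnrnpu, 0.57 for Prpf4b and 0.66 for Hnrnpr. Over annotated lengths Hnrnpu, at 14.3 in sort 1 and 15.2 in sort 2, lay below Hnrnpk, at 21.3 and 19.8, and Hnrnpr, at 1.45 in both, became the lowest hnRNP. The order of the family medians of mean level was kept. Where the implied length was the shorter, levels over annotated lengths are too low if reads were counted over the shorter transcript alone. Whether they were was not tested, so these changes of order are uncertain. A few members had several rows. Hnrnpf had 4, of which the row from 117906782 to 117925622 on chromosome 6 took 49.2% of its reads in sort 1 and 49.1% in sort 2. Srsf11 took 82.3% and 73.1% in its longest row, from 158010493 to 158036639 on chromosome 3, and 17.7% and 26.9% in a shorter one. Snrpa split unevenly: the row ending at 27195760 on chromosome 7 had 106 reads in sort 1 and 17 in sort 2, and the row ending at 27196271 had 46 and 67. Both rows start at 27187006, and how reads common to them were divided was not tested. The locus also overlaps BC024978 on the opposite strand over 491 bases.

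Agreement between the sorts was close. Across the 64 members, which share 2 libraries and are not independent, log2(RPKM + 1) had a Pearson correlation of 0.987 and a Spearman correlation of 0.977. Of 61 members with 10 reads or more over the 2 libraries, 1 passed both a 2-fold limit and an adjusted p under 0.05 in an exact binomial test of its reads, adjusted after Benjamini and Hochberg over the 12347 genes tested, where 7.95% of those genes passed (4.95% with more in sort 1, 3% with more in sort 2). That member was U2af1l4, at chromosome 7 from 30563340 to 30565364, with 61 reads in sort 1 and 28 in sort 2. It was 2.08-fold higher in sort 1, at an adjusted p of 0.00450 by that test. Without a prior count its log2 ratio was 1.06, with a 95% counting interval of 0.39 to 1.76. This test sees only sampling noise. With the dispersion between the libraries included, the edgeR exact test gave U2af1l4 an adjusted p of 0.895 and called none of the 61 members, 0 of them also at an unadjusted p under 0.05, where 0.267% of all genes were called and 6.2% had such an unadjusted p. Its dispersion was estimated from the same 2 libraries that it compares, so few calls were possible by construction and their lack says nothing of stability. After the fit on transcript GC content described next, its log2 ratio was 0.84, under 2-fold, and 0 members were called, where 6.27% of all genes were.

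**Figure D2:**
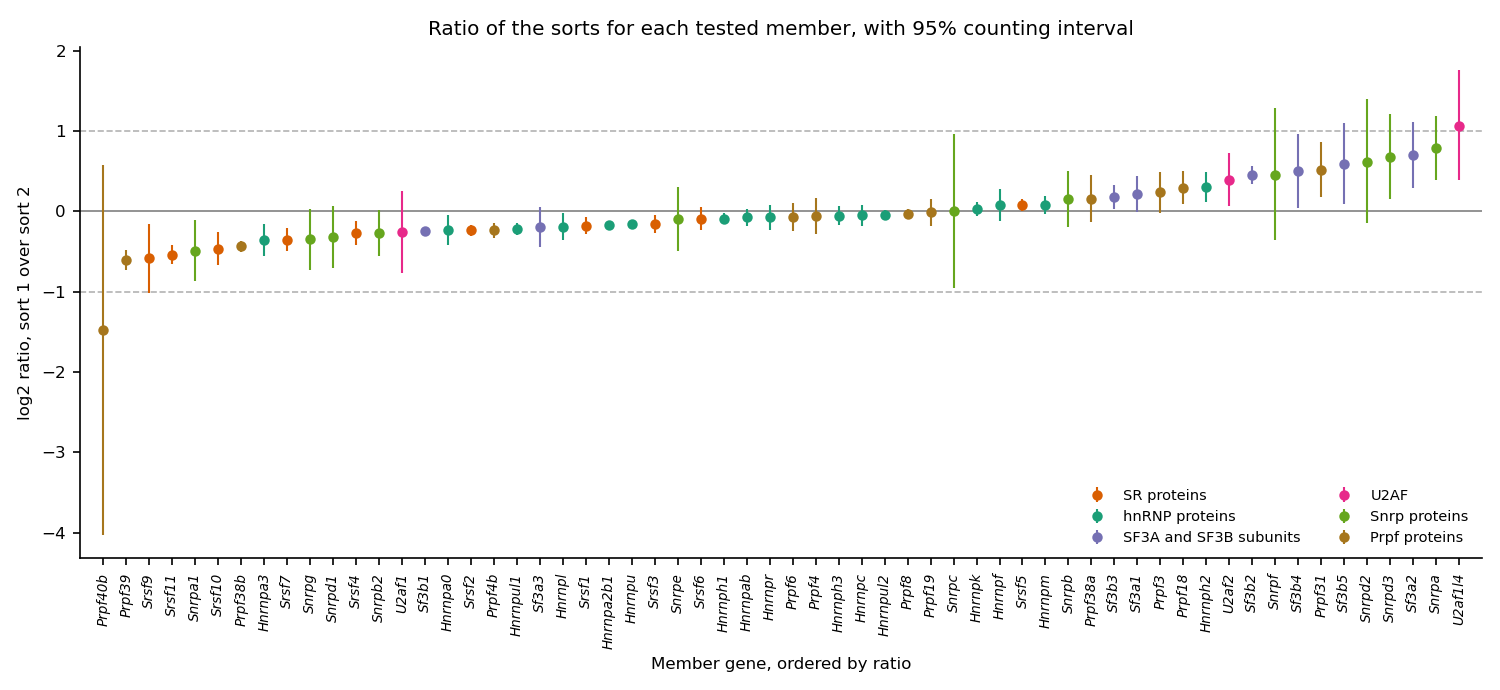
The log2 ratio of sort 1 over sort 2, from TMM-scaled reads, for 60 of the 61 tested members in order of ratio; points are coloured by family, bars are 95% intervals for counting error only, and dashed lines mark a 2-fold difference. For 51 of those drawn the whole interval lies within 2-fold, and U2af1l4 at the right end is the member called.

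At any fold, 30 of 61 members, or 49.2%, passed the adjusted p of the binomial test, 10 higher in sort 1 and 20 higher in sort 2, where 43.3% of all tested genes did, 21% with more in sort 1 and 22.3% with more in sort 2. Tested members had a median of 975 reads against 319 for all tested genes, which gives such a test more power. The ratios themselves were small: the median size of the log2 ratio was 0.24 for members and 0.33 for all tested genes, or 0.24 for all detected genes. The 4 members furthest towards sort 1, among those with at least 50 reads, were U2af1l4, Snrpa at a log2 ratio of 0.77, Sf3a2 at 0.69 and Snrpd3 at 0.66. Those furthest towards sort 2 were Prpf39 at -0.61, Srsf9 at -0.57, Srsf11 at -0.54 and Snrpa1 at -0.48. Prpf39 overlaps Fkbp3 on the opposite strand over 955 bases, and no source used here gives the strand setting of the counting.

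Families leaned to different sides. Of 10 tested SR genes 9 had a ratio below 0, that is, higher in sort 2, Srsf5 being the exception at 0.08, and the family median was -0.25. Of 16 hnRNP genes 12 were below 0, with a median of -0.08. In contrast 6 of 8 SF3A and SF3B genes were above 0, with a median of 0.33, the exceptions being Sf3b1 at -0.24 and Sf3a3 at -0.20. Snrp genes were split 6 to 5 with a median of 0.0022, and Prpf genes had 9 of 13 below 0 with a median of -0.06. Over all 61 members the median was -0.08, beside 0.00031 for all tested genes.

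Transcript GC content moved with these ratios. For the 8680 genes with 100 reads or more, GC content and the log2 ratio had a Spearman correlation of 0.539. Across the 56 members with as many reads, which share the same 2 libraries, it was 0.317. Over all 61 tested members, a set with a lower read minimum, it was 0.265. The 21 members of lowest GC content, 37.0% to 44.1%, had a median ratio of -0.16, and 4 of them were above 0. All 2175 tested genes in that range had a median of -0.28. The 20 members in the middle, 44.1% to 51.1%, had a median of 0.02 with 10 above 0, and the 4445 genes in that range -0.08. Among the 20 members of highest GC content, 51.5% to 62.2%, 9 were above 0 and the median was -0.02, and the 5022 genes in that range had 0.23. The members' medians thus did not climb over all 3 groups, as those of all genes did. The SR family had a median GC content of 44.2%, the hnRNPs 44.1% and the SF3A and SF3B genes 49.9%, against 50.1% for all tested genes. After subtraction of the fit on GC content over all genes the family medians were -0.17 for SR proteins, 0.11 for hnRNPs and 0.23 for SF3A and SF3B, and the median of all members was 0.11. The lean of the hnRNPs thus changed sign, and those of the SR and SF3 genes became smaller without changing sign. Markers of other cells moved between the sorts as well. The median log2 ratio was 0.43 for monocyte and macrophage genes. Of these, 3 of 10 tested were called higher in sort 1, where 4.95% of all tested genes were. C1qa among them had only 16 reads in sort 1 and 0 in sort 2. For erythroid genes the median was -0.50, with 3 of 9 called higher in sort 2, where 3% of all tested genes were. Those 3 were Slc4a1, Hba-a1 and Hba-a2. The last 2 had the same counts, 14 and 32 reads, and cannot be taken as separate findings. The median was -0.31 for cycling cell genes, with none of 15 called at 2-fold by the binomial test. It was 0.12 for neutrophil genes, among which Ltf had 0.75, Ngp 0.68, Lcn2 0.61 and Camp 0.60. Of the 14 neutrophil genes 8 were above 0 and 6 below, among the latter Ctsg at -0.49, Elane at -0.46 and Mpo at -0.18. The part of all these markers in the members' ratios was not tested.

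**Figure D3:**
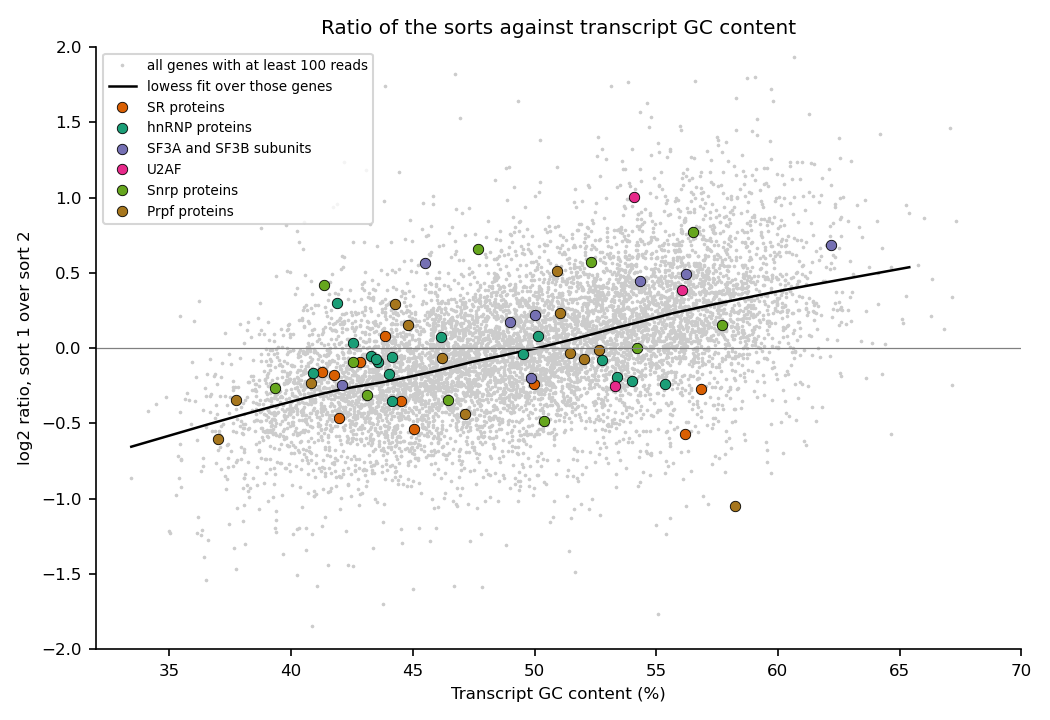
The log2 ratio of sort 1 over sort 2 (vertical) against transcript GC content in percent (horizontal) for the 61 tested members, coloured by family, over 8680 genes with at least 100 reads in grey and their lowess fit in black; 10 grey points beyond a log2 ratio of 2 are not drawn. The cloud and the fit climb with GC content, most SR genes lie below 0, and most SF3A and SF3B genes above.

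Of 140 other splicing genes, taken from 8 lists, 105 were detected, or 75%, with a median of 3.51 RPKM in sort 1 and 3.58 in sort 2. The medians of the single lists differed widely, and no test set them against the members. SR-related regulators and their kinases had 15 of 16 detected and the highest median, 13.7 and 12.2 RPKM. In that list Clk1, a kinase that phosphorylates SR proteins, had 49.9 and 62.8 RPKM and the speckle protein Srrm2 45.2 and 55.5. Genes of branch point and 3′ splice site recognition were all detected, 13 of 13, led by Rbm5 at 34.6 and 32.6 and Rbm39 at 23.7 and 26.9. All 25 other RNA-binding regulators were detected, led by Ptbp3, a polypyrimidine tract binding protein enriched in blood cells, at 43.0 and 54.2 and Mbnl1 at 33.1 and 45.2. Clk1, Srrm2 and Ptbp3 thus lay in or above the range of the leading SR proteins and hnRNPs. Mbnl1, Rbm5 and Rbm39 lay below Srsf2 in both sorts, Mbnl1 only just so in sort 2.

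Further snRNP proteins had 20 of 25 detected, their medians being 2.47 and 2.53 RPKM, low like the Snrp genes, although Snrnp70, the U1 protein, had 22.5 and 22.1 and the helicase Snrnp200 9.67 and 8.67. The Prp19 complex and catalytic helicases had 17 of 17 detected, led by Cdc40 at 12.6 and 21.5 and Syf2 at 12.4 and 9.32. The exon junction complex had 6 of 7, led by Magoh at 7.68 and 10.3 and the helicase Eif4a3 at 8.13 and 7.24. Genes that assemble and import snRNPs were the lowest of the general lists, with 9 of 18 detected, their medians being 1.33 and 1.37, led by Tgs1 at 6.94 and 7.84 and Strap at 4.02 and 5.27. Regulators known from nerve, muscle or epithelium had 0 of 19 detected and 11 without a read, the highest being Esrp2 at 0.434 and 0.230 and Celf3 at 0.108 and 0.108. Of the 124 genes of these lists that were tested, 5, or 4.03%, passed the 2-fold rule, beside 7.95% of all tested genes. Zmat5 and Lsm7 were higher in sort 1, and Ddx20, Gemin4 and Gemin8 were higher in sort 2, while the edgeR exact test called 0 of the 124, 4 of them having an unadjusted p under 0.05. Other genes of the complex that loads Sm proteins onto snRNA leaned the other way or less. Their log2 ratios were 0.05 for Smn1, 0.30 for Gemin2, 0.12 for Gemin5, -0.44 for Gemin7 and -0.95 for Gemin6. Gemin6 had only 5 reads in sort 1 and 11 in sort 2, and its ratio was near the -1.04 of Ddx20. Gemin4 and Gemin8 had 12 and 11 reads in sort 1, and 44 and 30 in sort 2.

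**Figure D4:**
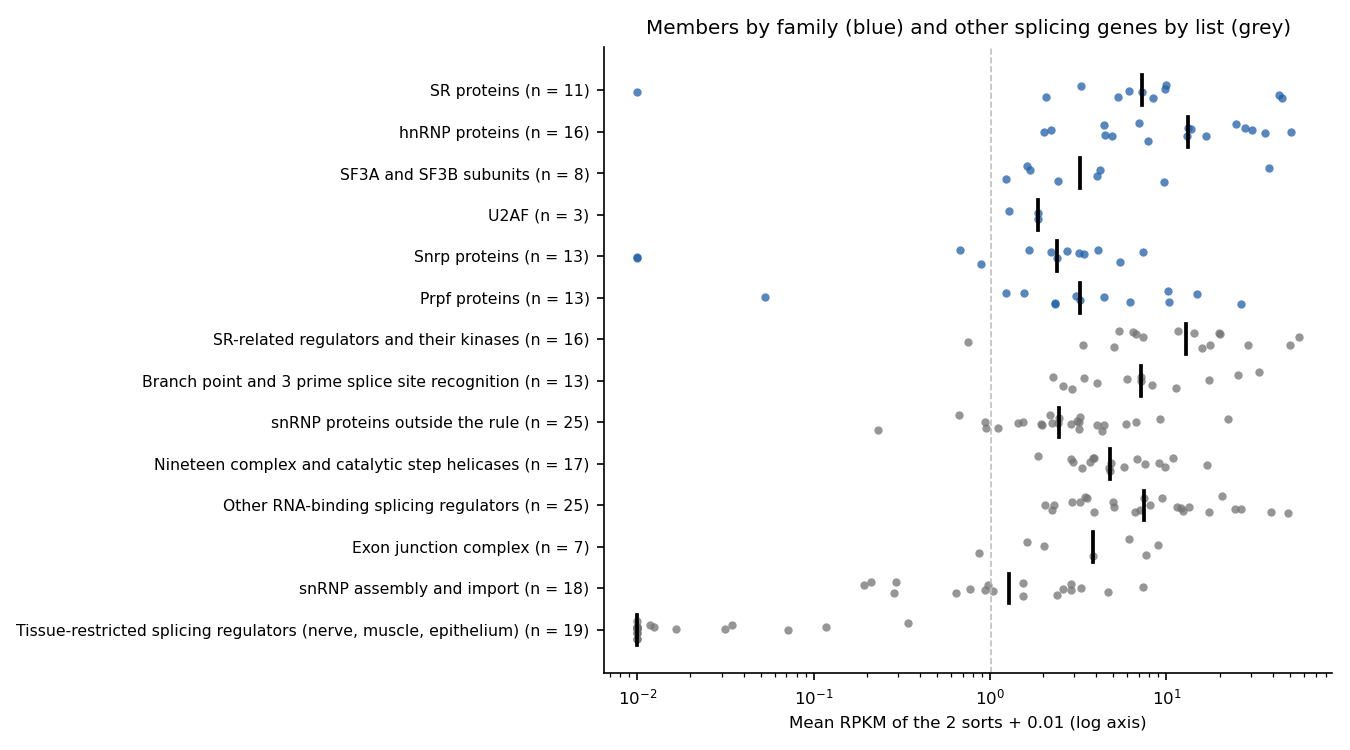
Mean RPKM of the 2 sorts plus 0.01, on a log axis, for the 64 members by family (blue) and for the other splicing genes by list (grey), with a black bar at each median and a dashed line at 1 RPKM. The hnRNPs and the SR-related regulators have the medians furthest to the right, and the tissue-restricted regulators lie below the line.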

How the data were processed

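Poly(A) RNA of eosinophils from 2 sorts was sequenced with stranded dUTP libraries, per the labels' protocols. Reads were aligned with STAR 2.4.0c to mm10, per the submitters' processing notes. No source used here names the counter, the strand setting or the filters. For each library the authors deposited read counts, as whole numbers, and RPKM values over 26099 groups of RefSeq transcripts. The totals of the tables are 25.0% of the RPKM divisor in sort 1 and 22.9% in sort 2, as implied by rows with 1 transcript, so RPKM is lower than these totals alone would give. Levels of different genes were compared by RPKM, which is per length. 1 entry with the Hnrnp prefix is not reported here, nor are the values of 1 member, which stays in counts and medians.

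Counts and RPKM were summed over rows with the same symbol, which gave 23343 genes. Libraries were scaled by TMM (edgeR 4.0.16, R 4.3.3). The 2 libraries were compared by an exact two-sided binomial test over genes with at least 10 reads, adjusted by Benjamini and Hochberg, called at an adjusted p under 0.05 and 2-fold. Log2 ratios of sort 1 over sort 2 used a prior count of 2, except those given or drawn with an interval. Intervals and the fold for a call came without it, the intervals from the binomial. The alternatives were DESeq2 1.42.0 size factors, total counts, other filters, the edgeR exact test with 1 common dispersion (biological coefficient of variation 0.231) and a lowess fit on GC content of GENCODE transcripts, matched by RefSeq accession, of which all 61 tested members had a value. Scripts were tested on simulated data.

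Named genes were the 4 highest of each family, all Sm ring, SF3A and SF3B members, all under 1 RPKM in a sort, all called, the 4 with the largest ratio each way among those with at least 50 reads, and the 2 highest of each list. Members, lists and rules were chosen with earlier results of these data known. Some members further to these were named after their values were seen. Replicates are separate sorts, whose spread also holds technical differences, and intervals and limits from a count of 0 (3 reads) cover counting error only. Promoter sequences are RefSeq's, in GRCm38.p6. The deposited coordinates are mm10.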

Additional observations from a re-analysis of the deposited data

How the results depend on the processing

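The number of detected members ranged from 45 to 60 over RPKM minimums of 2 and 0.5, a CPM minimum, single rows and GENCODE transcript lengths, and was 55 and 59 when each sort in turn was left out. The median RPKM of the members, 4.32, was 4.15 with the highest single row of each gene, 5.07 and 4.22 as geometric means with pseudocounts of 1 and 0.1, 5.30 over detected members, 3.95 with counts over GENCODE lengths, a choice made after seeing the data, and 4.24 to 4.33 when each sort was left out. Beside the 1 member called between the sorts, a fold of 1.5 called 5 (Sf3a2, Snrpa, Snrpd3 and U2af1l4 higher in sort 1, Prpf39 higher in sort 2), where 17.6% of all tested genes were called. The edgeR exact test called 0, and the binomial test around the GC fit, added after seeing the data, called 0, where it called 6.27% of all genes. Other scalings and filters called 1, U2af1l4. The median log2 ratio of the members, -0.08, was -0.13 with total counts, -0.0040 from deposited RPKM, -0.0079 with total counts without Rn45s, also added later, and 0.11 after the GC fit, which turned its sign. Among the 8 members named for their ratios no scaling or GC fit turned a direction, but sizes moved. The GC fit took Prpf39 to -0.12 (binomial adjusted p 0.151), Sf3a2 to 0.25 (0.367) and Snrpa to 0.51 (0.0258), against -0.61, 0.69 and 0.77. Without Rn45s in the totals Snrpa1 had -0.41 (0.0625). The 2-fold call of U2af1l4 was lost in 2 settings, with 0.84 after the GC fit (0.0245) and an adjusted p of 0.895 in the edgeR exact test, where few calls were possible by construction. No paired analysis was possible because both libraries belong to 1 group. For 9 of the 61 tested members the 95% counting interval reached past 2-fold, so depth limits what can be said of them.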

Other observations

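Related entries stood in the tables under names that the choice of members did not take. Hnrnpa1, a repressor that binds exonic silencers, shares a joint entry with Gm10052, which had 12.97 RPKM in sort 1 and 9.66 in sort 2. Hnrpdl and Hnrpll, which RefSeq now calls Hnrnpdl and Hnrnpll, had 16.4 and 13.3 RPKM and 5.08 and 7.04 RPKM. The entry 0610009D07Rik, RefSeq's Sf3b6, a subunit of SF3B that contacts the branch point, had 4.23 and 4.90 RPKM, close to Sf3b3.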
